A study of Mus musculus with 4 samples.

Results

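Tfcp2l1 and its relatives form the CP2 and grainyhead family of transcription factors. The family members read here were the 6 genes Tfcp2l1, Tfcp2, Ubp1, Grhl1, Grhl2 and Grhl3, found by symbol among the 23444 genes of the deposited expression table. They were chosen with their RPKM in knockout and wild-type libraries already known, so their differences between the groups are given as a description and without a test. RNA had been sequenced from EpCAM-positive (epithelial) lung cells of embryonic mice, taken at E18.5 (embryonic day), shortly before birth. The groups were wild-type embryos (WT, 2 libraries) and embryos lacking Emc3 in the developing lung epithelium through a conditional allele (KO, 2 libraries), and EMC3 is a subunit of the complex that inserts membrane proteins into the endoplasmic reticulum. The sources used here do not give the driver of the deletion, the litters or the number of embryos behind a library, so n = 2 counts libraries and their spread may be partly technical. Each library carries the name of its group and a number from its column heading, as KO 27, KO 35, WT 27 and WT 35.

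These factors bind DNA through a domain shared by the whole family. The grainyhead branch (GRHL1, GRHL2, GRHL3) is known for epithelial barriers, junctions and the closure of epithelial sheets, and GRHL2 acts together with NKX2-1 in the lung epithelium. The CP2 branch holds the broadly expressed TFCP2 and UBP1 and the more restricted TFCP2L1, which maintains naive pluripotency in mouse embryonic stem cells and patterns the collecting duct of the kidney.

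The group of a library is not given consistently. Column headings call KO 27 and KO 35 mutant, whereas the titles of the samples place KO 27 with the wild type and WT 35 with the knockout, going by the numbers in both. Groups here follow the headings. By title, both libraries numbered 27 are wild type and both numbered 35 knockout, so differences between the numbers are also differences between the titles' groups. Emc3, the targeted gene, measured in RPKM (reads scaled to gene length and to the mapped reads of the library), stood at 2.28 (KO 27), 2.33 (KO 35), 14.2 (WT 27) and 18.0 (WT 35), so both libraries headed mutant were low. On log2(RPKM + 1) Emc3 fell by 2.36 (SE 0.16, limma adjusted p = 0.0242), a call that was lost without KO 27 (limma adjusted p = 0.0664), without KO 35 (0.0642), with no filter (0.278) and with a filter of 10 RPKM (0.0696). With the groups of the titles Emc3 differed by 0.17 (limma adjusted p = 0.998). By Xist and Eif2s3y each group held 1 male and 1 female library. RPKM summed to between 141373 and 169294 per library, and the read depth is unknown. The 10 most abundant genes took 14.1% to 20.5% of the total in 3 libraries and 26.5% in WT 35.

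Of the members, Tfcp2l1 differed most between the groups, with higher levels in KO. KO 27 held 42.1 RPKM and KO 35 held 44.8 RPKM, whereas WT 27 held 10.4 and WT 35 held 13.8. Both KO libraries lay far above both WT libraries. The group means were 43.5 ± 1.90 RPKM in KO and 12.1 ± 2.39 in WT (SD, n = 2), a 3.59-fold higher mean in KO. On the log2(RPKM + 1) scale, used for all differences below, KO minus WT was 1.77, while the libraries numbered 35 and 27 differed by 0.09 within KO and by 0.37 within WT. The difference was 1.92 between the libraries numbered 27 and 1.63 between those numbered 35. Among the 10128 genes that reached 1 RPKM in at least 2 libraries (the tested genes), 18 had a larger difference. In sorted bulk RNA, a change in the share of a cell type and a change in RNA per cell cannot be told apart. These values took part in the choice of the gene and support nothing beyond themselves. The authors' deposited table gives Tfcp2l1 a fold change of 3.42.

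**Figure D1:**
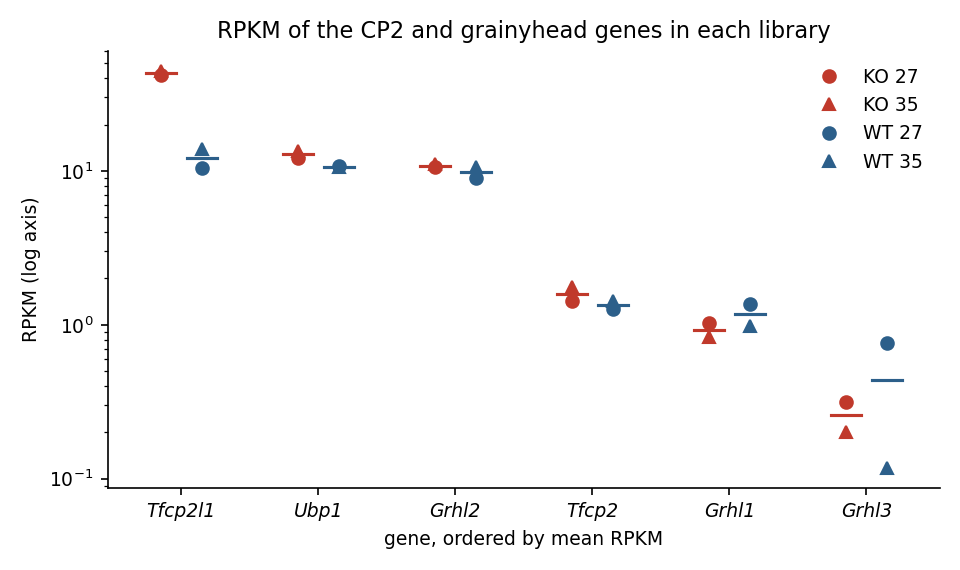
RPKM (log axis) of the 6 genes in each library, ordered by their mean over all libraries; red points are KO, blue points WT, circles the libraries numbered 27, triangles those numbered 35, and short lines the group means. Tfcp2l1 sits at 42.1 and 44.8 RPKM in KO against 10.4 and 13.8 in WT, while Ubp1, Grhl2, Tfcp2 and Grhl1 lie close together in both groups.

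Tfcp2l1 lies on chromosome 1 from 118627923 to 118685168 (GRCm38, the assembly that the authors' mm10 names). Its promoter is printed with that of Tfcp2, a CP2 gene of low level with little difference between the groups, because the former holds the letters of a TATA box and the latter does not. Both are RefSeq sequences of GRCm38.p6 and run 5′ to 3′ over the 250 bases before the transcription start that the promoter table uses, with the letters TATAAA in capitals. That start is 118627945 for Tfcp2l1, 22 bases inside the gene as bounded above, and 100552008 for Tfcp2, 6 bases inside its RefSeq gene, so the last bases printed belong to the RefSeq gene span. The first lies at chr1:118627695-118627944 on the plus strand and the second at chr15:100552009-100552258 on the minus strand.
Tfcp2l1: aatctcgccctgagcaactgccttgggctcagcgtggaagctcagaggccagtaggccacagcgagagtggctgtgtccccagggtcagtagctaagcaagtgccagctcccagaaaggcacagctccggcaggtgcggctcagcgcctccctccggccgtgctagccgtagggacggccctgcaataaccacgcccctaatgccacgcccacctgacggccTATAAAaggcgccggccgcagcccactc
Tfcp2: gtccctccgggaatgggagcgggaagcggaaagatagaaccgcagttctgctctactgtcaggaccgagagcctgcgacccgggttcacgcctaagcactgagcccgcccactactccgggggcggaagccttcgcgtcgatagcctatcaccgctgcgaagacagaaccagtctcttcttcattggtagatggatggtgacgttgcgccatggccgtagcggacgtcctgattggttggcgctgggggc

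In Tfcp2l1 the letters TATAAA begin at -28 from the start in the promoter table and at -6 from the first base of the RefSeq gene span. On the strand of the gene, TATAAA is found in 8.32% of the 32851 promoter windows of 300 bases (250 before and 50 after a start) in RefSeq, and among the members in Tfcp2l1 only, over the 7 windows of the 5 members that the table holds. The GRHL palindrome AACCGGTT, searched on both strands, was in 0 of these 7 windows and in 0.146% of all windows. Its looser form AACNGGTT, which includes it, was in 0 of 7 and in 2.09% of all. The Tfcp2l1 window had a GC content of 65.3% and 21 CpG pairs, that of Tfcp2 61.7% and 29, against medians of 52.7% and 7 over all windows. A match is a stretch of letters and not a shown binding site, and the lack of one covers these windows alone.

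The other CP2 genes differed little. Ubp1, which encodes the factor LBP-1a (chromosome 9, 113930939 to 113978027), had 12.2 RPKM (KO 27), 13.4 (KO 35), 10.7 (WT 27) and 10.5 (WT 35). Both KO libraries were above both WT libraries by a small margin, with means of 12.8 ± 0.829 and 10.6 ± 0.142 RPKM and a difference of 0.24. For Ubp1 the authors' deposited table gives a fold change of -1.67, lower in KO, which is the opposite of the direction of the RPKM. Such opposite directions occurred for 3191 of 10111 tested genes with a finite deposited fold change (31.6%), and the cause was not tested. No direction is therefore read for Ubp1.

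Tfcp2, the gene of the factor also called CP2 or LSF (chromosome 15, 100497781 to 100552014), was low in every library. Its levels were 1.43 RPKM (KO 27), 1.75 (KO 35), 1.26 (WT 27) and 1.44 (WT 35). The groups overlapped, since WT 35 was slightly above KO 27, and the difference of 0.14 was close to the 0.18 and 0.11 by which the libraries numbered 35 exceeded those numbered 27 within KO and within WT.

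Grhl2, the grainyhead gene of highest level in these cells (chromosome 15, 37232821 to 37363569), was nearly alike in the groups. Its levels were 10.5 RPKM (KO 27), 11.1 (KO 35), 8.99 (WT 27) and 10.5 (WT 35). KO 27 exceeded WT 35 by less than 0.01 RPKM, so the groups touched. Means of 10.8 ± 0.419 RPKM in KO and 9.76 ± 1.08 in WT differed by 0.14 on the log2 scale, which was smaller than the 0.21 between the WT libraries.

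Grhl1, known for the control of desmosomal genes in the epidermis (chromosome 12, 24572232 to 24617391), was near the lower limit of the tested range. Levels of 1.02 RPKM (KO 27), 0.839 (KO 35), 1.37 (WT 27) and 0.982 (WT 35) gave overlapping groups and a difference of -0.17. Grhl3, which acts in the epidermal barrier and in neural tube closure (chromosome 4, 135541887 to 135573632), stayed below 1 RPKM in all libraries and was not among the tested genes. Its levels were 0.314 RPKM (KO 27), 0.202 (KO 35), 0.759 (WT 27) and 0.117 (WT 35). The WT libraries enclosed the KO libraries, and the KO minus WT difference was -0.42 for the number 27 and 0.11 for the number 35.

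In order of the mean RPKM over all libraries the genes ran Tfcp2l1 (27.8), Ubp1 (11.7), Grhl2 (10.3), Tfcp2 (1.47), Grhl1 (1.05) and Grhl3 (0.348). In KO, Tfcp2l1 stood clear of Ubp1. In WT the range of Tfcp2l1 took in the values of Ubp1 and reached those of Grhl2, and Ubp1 and Grhl2 came within 0.01 RPKM of each other, so the order of these 3 genes there lies within the spread. Ubp1 and Grhl2 lay above Tfcp2 in every library. Of the tested genes, 93.3% had a lower mean RPKM than Tfcp2l1, 78.0% than Grhl2 and 3.49% than Grhl1.

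Since RPKM is scaled by gene length, levels can be added over the family. The 3 CP2 genes summed to 55.8 RPKM (KO 27), 59.9 (KO 35), 22.4 (WT 27) and 25.8 (WT 35). Tfcp2l1 made up 75.5% and 74.8% of this sum in KO and 46.5% and 53.6% in WT. Without Tfcp2l1 the remaining 5 genes summed to 26.4 ± 1.27 RPKM in KO and 23.4 ± 0.340 in WT, so most of the difference in the family total came from 1 gene. The 3 grainyhead genes summed to 11.9 and 12.2 RPKM in KO and 11.1 and 11.6 in WT, with Grhl2 at 80.9% to 91.4% of the sum.

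**Figure D2:**
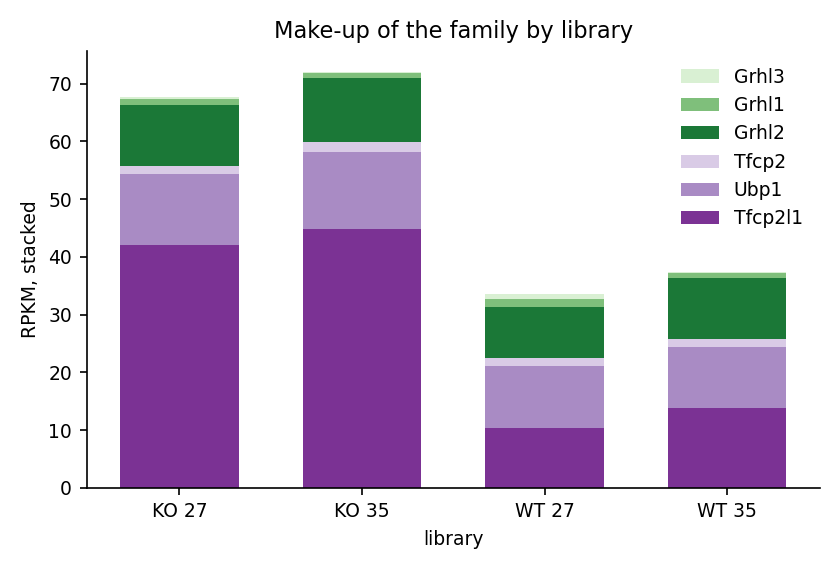
RPKM of the 6 genes stacked for each library, the CP2 genes in purple and the grainyhead genes in green. The purple Tfcp2l1 segment is 42.1 and 44.8 RPKM high in KO and 10.4 and 13.8 in WT, and the segments above it are of similar height in all libraries.

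Of the 6 members, 5 were among the tested genes. KO libraries were all above WT libraries for Tfcp2l1, Ubp1 and Grhl2, and the groups overlapped for Tfcp2, Grhl1 and Grhl3. Over all tested genes both KO libraries were above both WT libraries for 30% and below for 16.3%. The choice of the members used this contrast, so nothing is read from their count. The median difference of all tested genes was 0.06, and the differences of Grhl2 and Tfcp2 (each 0.14) were exceeded by 35.3% and 35.4% of them.

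**Figure D3:**
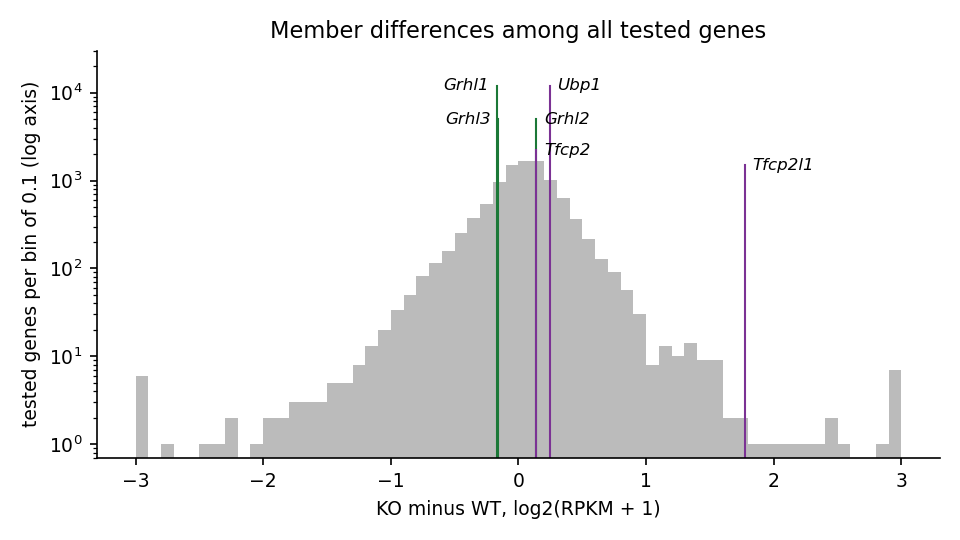
Histogram of KO minus WT on log2(RPKM + 1) over the 10128 tested genes (bins of 0.1, gene counts on a log axis, values beyond 3 in either direction placed in the last bins), with vertical lines at the 6 members, purple for CP2 and green for grainyhead genes; the height of a line has no meaning. Tfcp2l1 at 1.77 lies in the right tail and the other members lie between -0.17 and 0.24, in the bulk of the genes.

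Whether genes known to act under or with these factors differed was asked next. The lists were chosen from background knowledge with earlier results of these data known. No gene of the 8 lists passed limma's test over all genes (adjusted p under 0.05), by which 0.0691% of the tested genes were called (3 higher, 4 lower). At an unadjusted p under 0.05, 8.17% of the tested genes were higher and 5.68% lower.

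None of the tested targets of grainyhead factors in epithelia passed the test. The list holds genes of junctions, surface proteases and epithelial splicing. Of its 25 genes, 23 were tested, and 0 passed limma's test in either direction, with 2 higher and 0 lower at an unadjusted p under 0.05. KO libraries were all above WT libraries for 9 of 23 (39.1%, against 30% of all tested genes) and all below for 0 (against 16.3%). The median difference was 0.18, against 0.06 for all tested genes, and it was 0.11 with quantile or median scaling, 0.09 with a filter of 10 RPKM and 0.10 without WT 27. With each library left out in turn, 13 or 14 of the 23 genes had every remaining KO library above every remaining WT library. Over all tested genes this share was 41.6% to 48.1%. Between 0 and 6 of the genes were below in the same way, and the share of all tested genes below was not counted for these settings.

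Ehf, which encodes an epithelial ETS transcription factor, had 4.37 and 2.83 RPKM in the KO libraries and 1.68 and 1.86 in the WT libraries, here and below in the order 27 and 35 (difference 0.71, limma adjusted p = 0.231). Cldn4, a tight junction claudin, was at 2.34 and 4.81 RPKM in KO and at 1.94 and 1.63 in WT (difference 0.67, limma adjusted p = 0.373). For both genes the groups did not overlap.

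Cldn3, another claudin of tight junctions, was at 47.1 and 46.3 RPKM in KO and at 34.0 and 38.0 in WT (difference 0.37, limma adjusted p = 0.336). St14, which encodes the surface protease matriptase, was at 8.43 and 7.40 RPKM in KO and at 6.12 and 5.98 in WT. Cells were sorted on EpCAM, whose own transcript Epcam was at 52.9 and 53.9 RPKM in KO and 35.2 and 46.2 in WT.

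Other targets lay at like levels in the groups. Cdh1, which encodes E-cadherin, the adhesion protein of epithelial junctions and a much studied GRHL2 target, was at 128 and 105 RPKM in KO and 114 and 127 in WT. Spint2, an inhibitor of surface serine proteases, was at 56.0 and 52.2 RPKM in KO and 57.0 and 55.0 in WT. The differences over the list ran from -0.10 to 0.71.

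**Figure D4:**
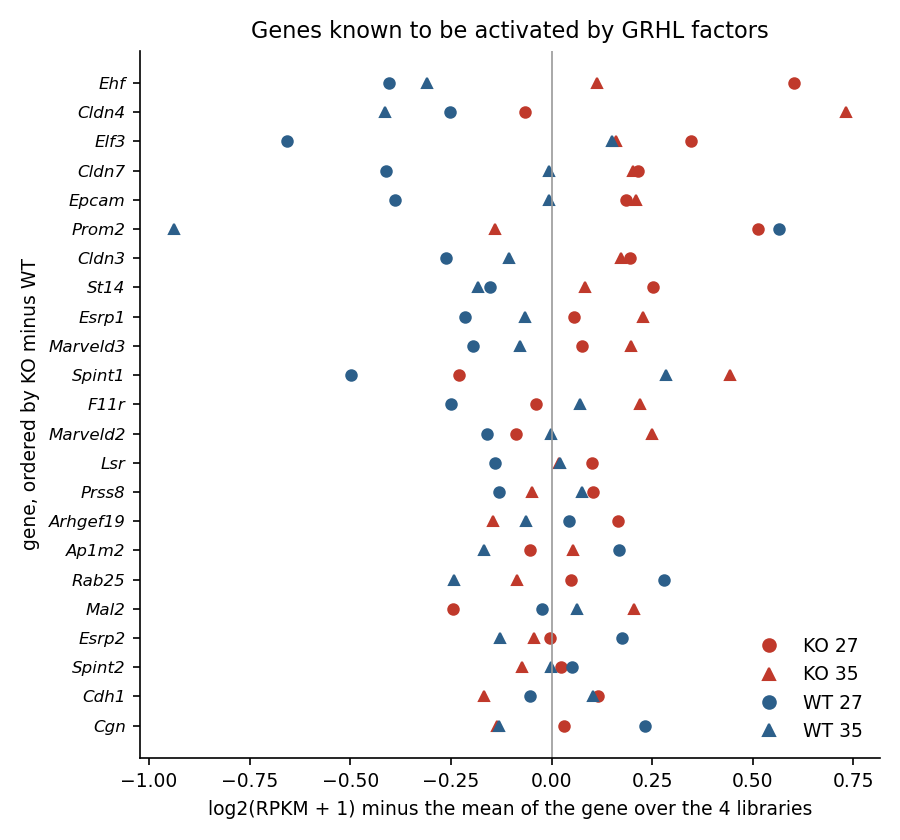
Levels of the 23 tested genes that GRHL factors are known to activate, as log2(RPKM + 1) minus the mean of the gene over the 4 libraries, ordered by KO minus WT; red is KO, blue WT, circles number 27 and triangles number 35. For 9 genes, among them Ehf, Cldn4 and Cldn3, all red points lie right of all blue points, and for none do all lie left.

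Genes of desmosomes and the cornified envelope, known territory of GRHL1 and GRHL3 in skin, included genes well above and genes below the filter. Of 19 genes 9 were tested, 10 stayed below 1 RPKM in all libraries, and 4 were listed at 0 in all. The median difference was -0.04, and no gene had an unadjusted limma p under 0.05. In all libraries 2 genes were above (22.2%, against 30% of all tested genes) and 1 was below (11.1%, against 16.3%). Dsp, which encodes the desmosomal plaque protein desmoplakin, was at 18.0 and 20.2 RPKM in KO and 17.6 and 18.3 in WT. Tgm1, a transglutaminase of the epidermal barrier, was at 6.41 and 6.66 RPKM in KO and 5.56 and 2.12 in WT.

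In the list of genes of epithelial-mesenchymal transition (EMT), the factors that oppose GRHL2 were near absent, while Vim and Fn1 were expressed. Of the 9 genes 7, including Zeb1, Zeb2, Snai1 and Snai2, stayed below 1 RPKM in all libraries. The 2 tested genes were above WT in both KO libraries (100%, against 30% of all tested genes). Both had an unadjusted limma p under 0.05, as had 8.17% of all tested genes in this direction. Vim, which encodes the intermediate filament protein vimentin, was at 21.8 and 18.1 RPKM in KO and 15.5 and 14.4 in WT (difference 0.39, limma adjusted p = 0.349). Fn1 encodes fibronectin, a matrix glycoprotein, and was at 7.90 and 5.91 RPKM in KO and 3.67 and 5.02 in WT (difference 0.56, limma adjusted p = 0.319). Of 8 mesenchymal markers 4 were tested, with 0 above (against 30% of all tested genes) and 1 below in KO (25%, against 16.3%). Their list sum was 22.4 and 20.1 RPKM in KO and 17.8 and 24.2 in WT. Their part in these values was not tested.

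The pluripotency network of TFCP2L1 was mostly silent, with 9 of 16 genes below 1 RPKM in all libraries, Esrrb, Nanog and Pou5f1 among them. In both KO libraries 2 of the 7 tested genes were above WT (28.6%, against 30% of all tested genes) and 4 below (57.1%, against 16.3%). Of these 4, Tbx3 was at 0.761 and 0.805 RPKM in KO and 1.11 and 1.06 in WT. It passed the filter through the WT libraries alone. At an unadjusted limma p under 0.05, 1 gene was higher. The median difference was -0.22, which is the value of Tbx3. Stat3, which relays LIF signals to Tfcp2l1 in mouse embryonic stem cells, was at 26.95 and 27.7 RPKM in KO and 17.4 and 19.2 in WT (difference 0.55, limma adjusted p = 0.205). Klf5, a Krüppel-like factor of stem cells and of lung epithelium, was at 39.0 and 42.9 RPKM in KO and 52.1 and 44.2 in WT. Socs3, a feedback inhibitor of STAT3 signals, was at 2.85 and 2.55 RPKM in KO and 1.46 and 2.37 in WT. Lifr, the LIF receptor gene, was lower in both KO libraries, at 8.01 and 7.70 RPKM against 8.41 and 13.5 in WT. Klf4 was also lower in both, at 2.95 and 3.13 RPKM against 3.61 and 4.16 in WT. Il6st overlapped, at 21.4 and 25.2 RPKM in KO and 22.5 and 20.8 in WT.

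Collecting duct and ionocyte genes were mostly near absent. Foxi1, the defining factor of ionocytes, was listed at 0 in all libraries, as were Aqp2 and Bsnd, and 8 of 13 genes were below 1 RPKM throughout. Among the 4 tested genes 1 was above WT in both KO libraries (25%, against 30% of all tested genes) and 1 below (25%, against 16.3%). At an unadjusted limma p under 0.05, 1 of the 4 was higher and 1 lower. Of all tested genes 8.17% were higher and 5.68% lower at that p. Jag1, which encodes a Notch ligand, was at 4.15 and 4.90 RPKM in KO and 3.94 and 4.92 in WT. Atp6v1c2, which encodes a proton pump subunit, was at 42.3 and 27.5 RPKM in KO and 48.0 and 62.2 in WT (difference -0.66, limma adjusted p = 0.332). Aqp3, which encodes a water and glycerol channel, was at 1.24 and 1.64 RPKM in KO and 0.290 and 0.815 in WT (difference 0.67, limma adjusted p = 0.296), and passed the filter through the KO libraries alone.

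Among the 12 targets and partners of TFCP2 and UBP1, 9 were tested, with a median difference of 0.08. In all libraries 4 were above (44.4%, against 30% of all tested genes) and 1 was below (11.1%, against 16.3%). At an unadjusted limma p under 0.05, 1 gene was higher. That gene was Spp1, which encodes the secreted protein osteopontin. It was at 1.62 and 1.99 RPKM in KO and at 0.0239 and 0.133 in WT (difference 1.38, limma adjusted p = 0.0832), and it passed the filter through the KO libraries alone. Yy1 and Ring1, which encode partners of CP2 factors in repression, were at 10.3 and 9.97 RPKM and at 7.15 and 5.74 RPKM in KO, and at 8.80 and 8.71 RPKM and at 6.63 and 7.06 RPKM in WT. Beside Spp1, 4 of 5 tested immune markers were above WT in both KO libraries (80%, against 30% of all tested genes). Of these 4, Tyrobp and Cd52 passed the filter through the KO libraries alone, as Spp1 did. The remaining tested marker, Lcp1, was lower in both KO libraries, at 28.2 and 27.3 RPKM against 30.4 and 36.7 in WT. Mean levels of the list were 1.79 and 1.49 in KO and 1.28 and 1.19 in WT on log2(RPKM + 1). Its summed levels overlapped, at 38.0 and 33.6 RPKM in KO and 34.2 and 39.5 in WT. The part of immune markers in the value of Spp1 was not tested.

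Planar cell polarity genes, which interact with Grhl2 and Grhl3 in neural tube closure, showed no common direction. In both KO libraries 1 of the 12 tested genes was above WT (8.33%, against 30% of all tested genes) and 4 were below (33.3%, against 16.3%). The median was 0.02, and no unadjusted limma p was under 0.05. Lung epithelial transcription factors had a median of -0.07 over 15 tested genes, with 2 lower at an unadjusted limma p under 0.05. In all libraries 0 were above (against 30% of all tested genes) and 4 below (26.7%, against 16.3%). Nkx2-1, the lung lineage factor linked to Grhl2, was at 271 and 264 RPKM in KO and 270.1 and 278 in WT. The 2 lower genes were Foxj1 and Etv5. Foxj1, the master factor of multiciliated cells, was at 8.97 and 9.29 RPKM in KO and 15.4 and 19.9 in WT (difference -0.87, limma adjusted p = 0.176). Etv5 was at 69.6 and 61.9 RPKM in KO and 85.8 and 92.6 in WT (difference -0.43, limma adjusted p = 0.298).

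Markers of cell types are given beside the Tfcp2l1 values, and none of them passed limma's test over all genes (lowest adjusted p = 0.125, among ciliated cell markers). Their counts stand beside 30% of all tested genes above WT in both KO libraries and 16.3% below. All 7 ciliated cell markers found in the table were lower in both KO libraries, with summed levels of 77.9 and 78.0 RPKM in KO and 117 and 179.9 in WT. Of 7 tested club cell markers 3 were lower and 0 higher in all libraries, with sums of 2183 and 3333 RPKM in KO and 3505 and 10730 in WT. Most of each sum was Scgb1a1, at 1560 and 2698 RPKM in KO and 2556 and 9678 in WT, whose groups overlapped. Of 10 markers of alveolar type 2 (AT2) cells 1 was lower and 0 were higher in all libraries, and of 10 markers of alveolar type 1 (AT1) cells 2 were lower and 1 was higher. The AT2 sums were 11629 and 11509 RPKM in KO and 9978 and 15932 in WT, and the AT1 sums 373 and 405 RPKM in KO and 527 and 380.1 in WT, so that both sums overlapped between the groups. Basal cell markers other than Krt15 were below 1 RPKM in all libraries. Krt15 was lower in both KO libraries, at 4.50 and 2.56 RPKM against 11.2 and 6.70 in WT (difference -1.13, limma adjusted p = 0.217). The part of the cell makeup in the Tfcp2l1 difference was not tested.

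The genes whose pattern over the 4 libraries was most like that of Tfcp2l1 were taken from 4464 tested genes with a mean of at least 5 RPKM, by the distance between profiles of log2(RPKM + 1) centred on each gene's mean. The nearest were Anxa5, an annexin gene, at a distance of 0.26, Rhou, a small GTPase gene, at 0.27, Cd44, a hyaluronan receptor gene, at 0.27, S100a1, a calcium-binding protein gene, at 0.36, and Malt1, a paracaspase gene, at 0.40. The median distance of all candidates was 1.73, close to the Tfcp2l1 difference of 1.77, which is about the distance of a gene without a difference. Nearness here thus mostly reflects a KO minus WT difference of like size, the contrast known when Tfcp2l1 was chosen. Cd44 was at 21.8 and 19.6 RPKM in KO and 3.72 and 5.34 in WT, and Rhou at 9.83 and 10.8 in KO and 1.78 and 3.57 in WT. With a pseudocount of 5 in place of 1, 3 of these 5 genes were again among the nearest 5. For Grhl2 the nearest were Gpbp1l1 (0.02), Mkrn1, Rfx7, Cnot3 and Atl2 (0.03), against a median distance of 0.32. With quantile normalization 2 of these 5 were among the nearest.

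**Figure D5:**
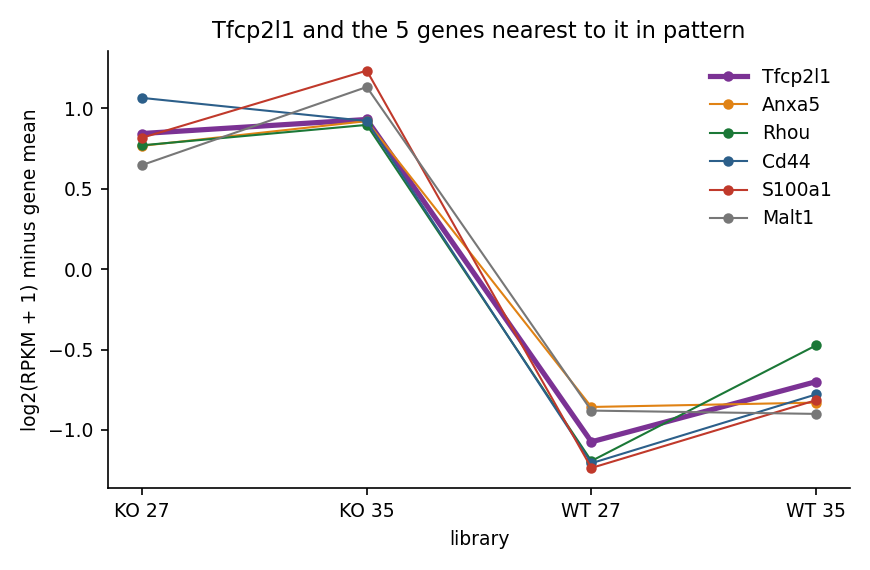
Levels of Tfcp2l1 (thick purple line) and of the 5 genes nearest to it in pattern in each library, as log2(RPKM + 1) minus the mean of the gene. All 6 lines are high in KO 27 and KO 35 and low in WT 27 and WT 35, the distances to Tfcp2l1 being 0.26 to 0.40.

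Genes beside Tfcp2l1 on chromosome 1 had smaller differences. They were chosen after the Tfcp2l1 values were seen, as the 3 nearest protein-coding genes of the table on each side. Clasp1, which encodes a microtubule-binding protein and ends 18461 bases before Tfcp2l1, was at 7.09 and 8.57 RPKM in KO and 5.10 and 6.55 in WT (difference 0.38, limma adjusted p = 0.420). Gli2, a Hedgehog transcription factor gene 148893 bases after it, stayed at or below 0.203 RPKM in all libraries. Tsn, Nifk and Ralb had differences between -0.19 and 0.20, and Inhbb stayed below 1 RPKM.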

How the data were processed

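The authors deposited 1 table of the series with 23444 genes. Its 4 library columns hold RPKM per the file headers, whose filter on values above 2 was true for just the genes above 2 in any column. The deposited p-values (not used here) and the signed fold change, a score that is minus the inverse ratio where KO is lower, are the authors' own per the file headers. Tools in the submitters' processing notes, with no roles, are DESeq, Cufflinks 2.0.2, TopHat2 2.0.8 and Bowtie2 2.1.0, and the genome is mm10. The sources used here give no annotation and no read filter.

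Tested genes had at least 1 RPKM in at least 2 libraries (10128). R 4.3.3 and its package limma 3.58.1 fitted the differences on log2(RPKM + 1) (trended prior variance, genotype by heading as the only term, two-sided, Benjamini-Hochberg over all tested genes, threshold 0.05). The same fit was tested on simulated data with known changes, apart from the deposited values. A log2(RPKM + 1) difference understates the change of low genes. The 6 members, the 8 gene lists and the 10 marker lists were chosen with earlier results of these data known; 1 gene of the list of GRHL targets is not reported here and is left out of its counts. Named genes are the members, Emc3, from each list up to 4 genes of smallest p and up to 4 of highest RPKM, and the 5 nearest in pattern to Tfcp2l1 and Grhl2, and some of these are left out of the text. Alternatives were quantile and median scaling, no trend, no filter or one of 10 RPKM, pseudocounts of 0.1 and 5, each library left out, a replicate block and the groups of the titles. Read depth is unknown, so only the spread between libraries gives the precision. Promoters and positions are from RefSeq GRCm38.p6, matched by symbol. Plots used Python 3.11.15 with matplotlib 3.10.9.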

Additional observations from a re-analysis of the deposited data

Results flagged for a closer look

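Grhl3 was marked because KO minus WT had opposite signs in the libraries of the 2 heading numbers. On log2(RPKM + 1) it was -0.42 for KO 27 against WT 27 and 0.11 for KO 35 against WT 35. With 1 library of each kind per number this difference was not tested, and all 4 values were below 1 RPKM.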

How the results depend on the processing

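With the libraries grouped by heading, the Tfcp2l1 difference ran from 1.51 (pseudocount of 5) to 1.96 (without WT 35). As a difference of group means it could not move with the trend, the filter or the block, and stayed at 1.77. Both KO libraries lay above both WT libraries, so leaving out a library could not turn the sign. These settings are therefore no test of the difference, and the gene was chosen with this contrast known. Grouping by title, which mixes the headings' groups, gave 0.23. Grhl2, Tfcp2 and Grhl1 kept their sign and moved by less than 1 SD; Tfcp2, Grhl1 and Grhl3 gave no value with a filter of 10 RPKM, which they do not reach. Ubp1 was 0.18 with median scaling and 0.05 with the titles. Grhl3 turned to 0.17 without WT 27 and was -0.48 without WT 35. The median of the GRHL targets was 0.11 with quantile or median scaling, 0.09 with a filter of 10 RPKM, 0.04 with the titles and 0.09 to 0.25 over all settings that keep the headings, leaving out a library giving 0.10 to 0.25. Genes past the threshold numbered 7, 2 with no filter, 4 with a filter of 10 RPKM, a pseudocount of 5 or the titles, and 8 to 43 with a library left out (28 without WT 35, 43 without WT 27), where the lone library is assumed to vary like the other group. Of the 5 genes nearest to Tfcp2l1, 3 stayed with a pseudocount of 5. Other list medians reversed with a filter of 10 RPKM: desmosome 0.02, pluripotency 0.09, collecting duct -0.22, CP2 targets -0.21 and polarity -0.11. With the titles the EMT genes gave -0.09, pluripotency 0.08 and polarity -0.02. Polarity was -0.01 with quantile and -0.03 with median scaling. Collecting duct was -0.12 without WT 27 and 0.37 without WT 35. With the replicate block by heading number 9 genes passed. The member differences could not change with the block, since they are differences of group means. The correlation of deviations across genes was 0.15 between same-numbered libraries. The labels do not say what the numbers stand for. Since 27 and 35 coincide with the titles' groups, this block cannot be told apart from grouping by title. The title numbers coincide with the headings' groups and gave no block. The cause of these changes was not tested.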

Other observations

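Among genes that did not reach the filter, Ovol2, a zinc finger repressor gene of mesenchymal fate that GRHL2 is known to activate, had 0.0888 RPKM (KO 27), 0.142 (KO 35), 0.510 (WT 27) and 1.11 (WT 35). Its paralogue Ovol1 went the other way, at 0.905 and 1.35 RPKM in KO and 0.573 and 0.892 in WT. Slc26a4, the gene of the anion exchanger pendrin, belongs to the collecting duct and ionocyte list. It was at 0.701 and 1.27 RPKM in KO and listed at 0 in both WT libraries. All 3 were chosen after their values were seen, and none was tested.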
